A study of Mus musculus with 10 samples.

Results

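Expression of 10 genes was followed across 10 Affymetrix mouse arrays of CD4+ T cells: Igfbp4, Actn1, Arhgap29, Lypd6b, Atp1b1, Als2cl, Amigo2, Adh1, Enc1 and Ntrk3. The genes had been chosen by their log2 differences on these same arrays. There both sorted subsets, CD49b+ and CD25+, were far lower than CD4+ cells, whose sample titles name neither of those 2 proteins. The differences of the 10 genes from CD4+ cells are therefore given here as a description without a test. They are 10 of the 17097 genes with a probe set of their own on the array, and 29 of its 45037 probe sets other than controls carry their symbols. Each gene was read from its brightest probe set, called the main probe set below, which is the one with the highest mean over the 10 arrays. All 10 exceeded the 50th percentile of the array on at least 2 arrays, a condition met by 11037 genes, which entered the tests. Arhgap29 met this filter only through the CD4+ arrays, where it is high, and each of the other 9 also lay above the median on at least 2 subset arrays.

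The cells came from the spleens of DBA/1 mice, an inbred strain. There were 3 arrays of CD49b+ cells, 3 of CD25+ cells and 2 of CD4+ cells, all from mice that had received immature dendritic cells, and 2 arrays of CD4+ cells of naive mice, which had received none. Intraperitoneal injections of 500000 dendritic cells each were given 7, 5 and 3 days before the mice were killed. All cells had been enriched for CD4 by negative selection on beads and stained for CD4, CD49b, the integrin alpha 2 chain, and CD25, the alpha chain of the interleukin 2 receptor, before sorting. Cells of several mice were pooled, and the labels do not say that replicates came from separate pools, so that the spread behind the p-values may be a technical one. The labels give neither the age of the mice nor the share of CD49b+ or CD25+ cells within the CD4+ samples.

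Naive T cells circulate at rest, keep a low metabolic rate and hold a set of transcripts that is turned down when they meet antigen and become effector, memory or regulatory cells. Igfbp4 and Actn1 are known as transcripts of naive mouse T cells. The 10 genes belong to no single pathway. They encode a secreted binding protein (Igfbp4), surface proteins (Ntrk3, Amigo2, Lypd6b and the pump subunit Atp1b1), regulators of small GTPases (Arhgap29 and Als2cl), cytoskeletal and adaptor proteins (Actn1 and Enc1) and an enzyme (Adh1).

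The sort and the arrays were checked first. Il2ra, the gene of CD25, averaged 6.29 ± 0.07 in CD49b+ cells and 8.83 ± 0.29 in CD25+ cells (SD, n = 3 each), against 4.17 ± 0.02 in CD4+ cells of injected mice and 4.17 ± 0.03 in those of naive mice (SD, n = 2 each), as log2 levels. It lay under the array median on every CD4+ array. Itga2, the gene of CD49b, averaged 5.78 ± 0.19 in CD49b+ cells and 5.47 ± 0.05 in CD25+ cells (SD, n = 3 each), against 5.82 ± 0.04 in CD4+ cells of injected mice (SD, n = 2). All 3 CD49b+ arrays lay above the CD25+ ones. The CD49b+ mean was not above that of the injected CD4+ group, but it exceeded the naive CD4+ mean of 5.72 ± 0.06 (SD, n = 2). The CD4 T cell markers with a probe set lay above the array median on every array (7 of 7). Replicate 3 of CD49b+ and of CD25+ cells stood apart, with poly-A transcripts added before labelling at 8.23 to 8.41 against 5.32 to 6.72 on the other 8 arrays. The array medians were 4.61 to 4.65 in the subsets and 4.79 to 4.81 in CD4+ cells, and levels under these medians may be near background, where a fold change is understated.

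Igfbp4 was the lowest of all 11037 genes in both subsets when set against CD4+ cells of injected mice. It encodes insulin-like growth factor binding protein 4, a secreted protein that holds insulin-like growth factors away from their receptor, and lies at chr11:99040005-99052655 (GRCm38.p6, the build of all positions given here). Its log2 levels were 6.96, 7.15 and 7.28 in CD49b+ cells and 6.93, 7.19 and 7.42 in CD25+ cells. CD4+ cells held 11.40 and 11.32 in injected mice and 11.36 and 11.14 in naive mice. No subset array came near a CD4+ array, and the subsets overlapped each other. The difference from CD4+ cells of injected mice was -4.23 in CD49b+ and -4.18 in CD25+ cells, which is 18.7-fold and 18.1-fold lower, so that 5.34% and 5.51% of the CD4+ level were left on the linear scale. In bulk samples fewer cells with a transcript and less of it per cell cannot be told apart. All 6 probe sets of Igfbp4 were lower in both subsets, with differences between -5.47 and -1.54 in CD49b+ cells.

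**Figure D1:**
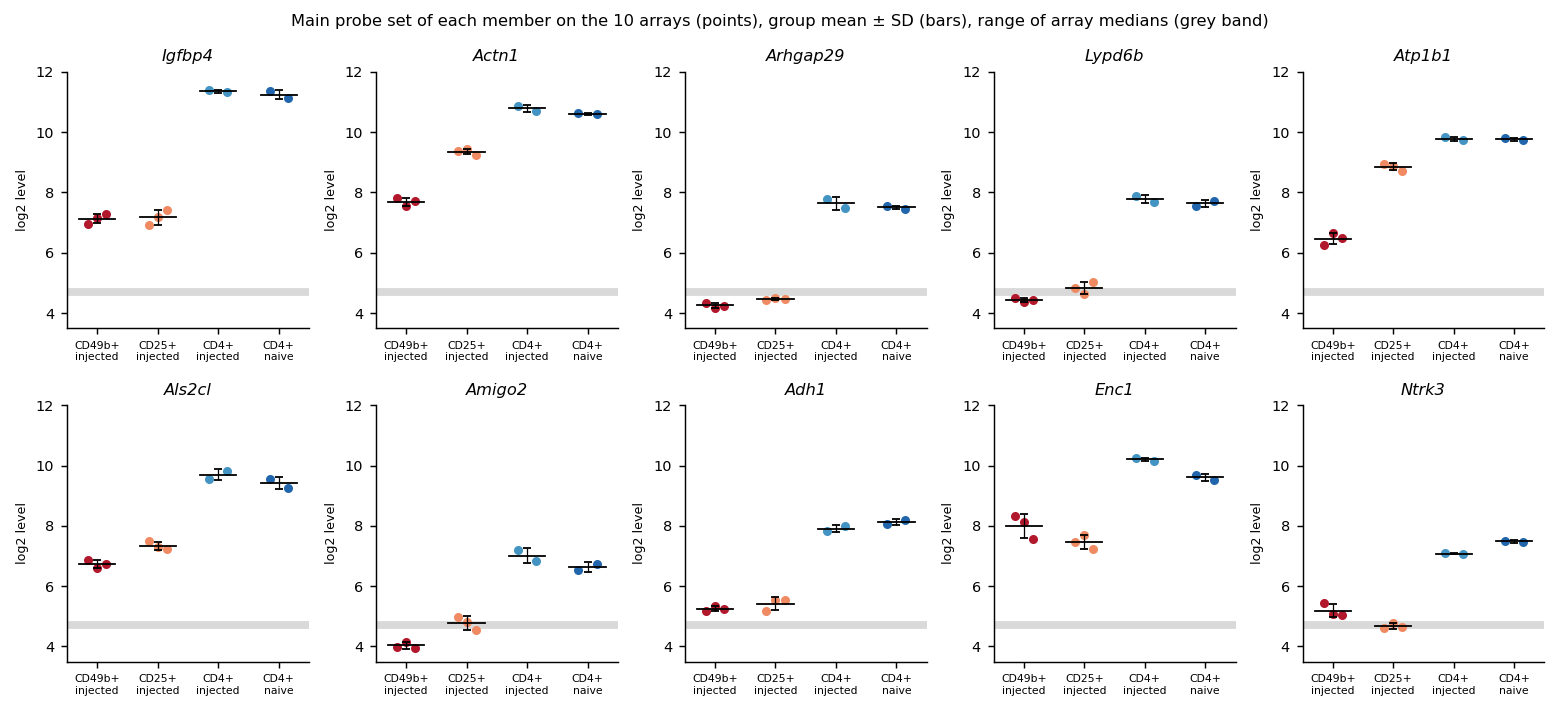
Log2 level of the main probe set of each of the 10 genes (y axis) on each array, by group (x axis); points are arrays, bars are group means ± SD (n = 3, 3, 2 and 2), and the grey band is the range of the array medians. In every panel the 6 subset arrays lie below the 4 CD4+ arrays, and Actn1 and Atp1b1 lie between in CD25+ cells.

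Over the 10 genes the median difference from CD4+ cells of injected mice was -3.04 in CD49b+ cells and -2.45 in CD25+ cells, 8.23-fold and 5.45-fold lower, where the medians over all genes tested were 0.03 and 0.02. All 6 subset arrays lay below all 4 CD4+ arrays for 10 of the 10 genes, as for 17.3% of the genes tested; the choice of the genes used this contrast, and nothing is read from the count. Both comparisons share the CD4+ arrays. Ranked from the lowest difference, Igfbp4, Arhgap29, Lypd6b and Atp1b1 took ranks 1 to 4 in CD49b+ cells, and the lowest placed of the 10, Ntrk3, took rank 60. In CD25+ cells Igfbp4, Arhgap29 and Lypd6b took ranks 1, 5 and 6, Actn1 rank 66 and Atp1b1 rank 181. Without replicate 3 of both subsets the median differences were -3.04 and -2.47.

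Arhgap29 and Lypd6b came closest to Igfbp4 in the size of the loss. Arhgap29, at chr3:121953113-122016677, encodes a GTPase-activating protein that acts downstream of Rap1 in endothelial cells. It stood at 4.35, 4.18 and 4.24 in CD49b+ cells and 4.44, 4.51 and 4.46 in CD25+ cells, all under the array medians, against 7.80 and 7.48 in CD4+ cells of injected mice and 7.54 and 7.47 in those of naive mice. The difference from CD4+ cells of injected mice was -3.38 in CD49b+ and -3.17 in CD25+ cells. Its other probe set was under the median on every array and showed -0.31 and -0.29. Lypd6b, at chr2:49787340-49948849, encodes a membrane-anchored protein of the Ly6 family whose relatives bind nicotinic acetylcholine receptors. CD49b+ cells had 4.50, 4.36 and 4.44 and CD25+ cells 4.83, 4.62 and 5.04, against 7.89 and 7.70 in CD4+ cells of injected mice and 7.56 and 7.72 in those of naive mice. This single probe set was below the array median on all 3 CD49b+ arrays and above it on 2 of the 3 CD25+ arrays, and the differences were -3.36 and -2.96.

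Among the other surface proteins, Atp1b1 was lower by more in CD49b+ than in CD25+ cells. It encodes the beta 1 subunit of the sodium-potassium pump, which brings the catalytic subunit to the plasma membrane, and lies at chr1:164437099-164458355. Its levels were 6.26, 6.65 and 6.50 in CD49b+ cells and 8.94, 8.88 and 8.73 in CD25+ cells, against 9.83 and 9.74 in CD4+ cells of injected mice and 9.79 and 9.73 in those of naive mice. The 4 sets of arrays fell into 3 separate levels, with the CD4+ groups together. CD49b+ cells kept 10.1% and CD25+ cells 52.4% of the level of CD4+ cells of injected mice. Amigo2, a leucine-rich repeat adhesion molecule first known from neurons, at chr15:97244074-97247287, stood at 3.99, 4.16 and 3.94 in CD49b+ cells and 4.99, 4.81 and 4.55 in CD25+ cells. CD4+ cells had 7.19 and 6.84 in injected mice and 6.52 and 6.75 in naive mice, and the differences from the injected ones were -2.98 and -2.23. All CD49b+ arrays were under their median, so that the first of these may be understated. Ntrk3, at chr7:78179986-78581034, encodes TrkC, the receptor of neurotrophin 3. It had 5.44, 5.09 and 5.04 in CD49b+ cells and 4.61, 4.79 and 4.65 in CD25+ cells, against 7.10 and 7.06 in CD4+ cells of injected mice and 7.52 and 7.45 in those of naive mice. Ntrk3 was one of the 2 genes, with Enc1, that stood lower in CD25+ than in CD49b+ cells.

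Als2cl, at chr9:110880120-110900530, encodes a protein that binds the endosomal GTPase Rab5. Its levels were 6.88, 6.60 and 6.75 in CD49b+ cells and 7.50, 7.29 and 7.23 in CD25+ cells, against 9.57 and 9.83 in CD4+ cells of injected mice and 9.57 and 9.27 in those of naive mice. The subsets kept 12.8% and 19.4% of the level of CD4+ cells of injected mice. Actn1, at chr12:80167542-80260420, encodes alpha-actinin 1, which crosslinks actin filaments and ties them to integrin adhesions. It had 7.82, 7.54 and 7.70 in CD49b+ cells and 9.39, 9.44 and 9.25 in CD25+ cells, against 10.88 and 10.70 in CD4+ cells of injected mice and 10.63 and 10.59 in those of naive mice. As with Atp1b1, CD25+ cells lay between, with 37.1% of the level of CD4+ cells of injected mice against 11.7% in CD49b+ cells. Enc1, at chr13:97241105-97253040, encodes a kelch-repeat protein that binds actin and serves as an adaptor of the Cul3 ubiquitin ligase. Levels of 8.32, 8.12 and 7.57 in CD49b+ cells and 7.47, 7.69 and 7.24 in CD25+ cells stood against 10.25 and 10.17 in CD4+ cells of injected mice and 9.68 and 9.54 in those of naive mice. The CD49b+ arrays spread most here (SD 0.39), and replicate 3 fell among the CD25+ arrays.

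Adh1, at chr3:138277585-138290698, encodes an alcohol dehydrogenase that oxidises ethanol and retinol. It stood at 5.18, 5.34 and 5.25 in CD49b+ cells and 5.17, 5.54 and 5.53 in CD25+ cells, against 7.83 and 7.99 in CD4+ cells of injected mice and 8.05 and 8.20 in those of naive mice. The subsets overlapped and kept 15.9% and 17.7% of the level of CD4+ cells of injected mice.

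The probe sets of a gene did not all show the loss. For Ntrk3, the main probe set and its 6 others ranged between -1.89 and 0.03 in CD49b+ against CD4+ cells of injected mice, and 4 of the others lay under the median on every array. The 3 probe sets of Actn1 showed -3.10, -1.32 and -0.52, and the 3 of Enc1 showed -2.21, -2.30 and -1.04. The 3 of Atp1b1 showed -3.31, -3.23 and -2.28, and the 2 of Als2cl -2.96 and -2.16. Lypd6b, Amigo2 and Adh1 have 1 each, so that their values rest on a single probe set.

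**Figure D2:**
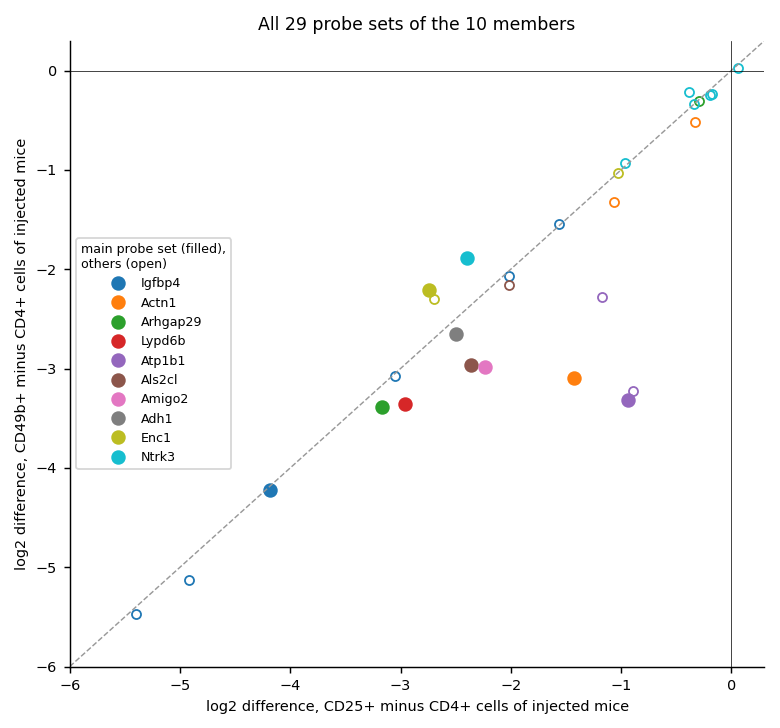
Log2 difference in CD49b+ (y axis) against that in CD25+ cells (x axis), each minus CD4+ cells of injected mice, for all 29 probe sets; filled points are main probe sets, open points the others, and the dashed line marks equal differences. Igfbp4 lies near the line, Atp1b1 and Actn1 lie below it, and 5 of the 7 probe sets of Ntrk3 cluster near 0.

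The sequence before the start of the genes was examined because the genes are low together. Windows of 250 bases before a start were found for 7 of the 10 genes in RefSeq (GRCm38.p6), with 9 windows in all since Arhgap29 and Als2cl have 2 starts each. The start used is not always the end of the gene position given above. The window of Igfbp4 and the second of Arhgap29 lie inside that position. Windows of Actn1 and Als2cl and the first of Arhgap29 overlap it, and those of Atp1b1, Amigo2 and Adh1 lie directly before it. Windows of Lypd6b, Enc1 and Ntrk3 were not used here. The motifs were searched on both strands: CTTTGA (TCF/LEF), TGTTTAC and TGTTTGC (FOXO), GGAAGT (ETS), TGTGGT (RUNX), GGGCGTG and GGGTGTG (KLF), and CAGCTG and CACCTG (E-box). The 4 genes with a KLF match and Actn1, which has an ETS match, are shown 5′ to 3′ on the strand of the gene, with every match in capitals.
Igfbp4, chr11:99040994-99041243, forward strand: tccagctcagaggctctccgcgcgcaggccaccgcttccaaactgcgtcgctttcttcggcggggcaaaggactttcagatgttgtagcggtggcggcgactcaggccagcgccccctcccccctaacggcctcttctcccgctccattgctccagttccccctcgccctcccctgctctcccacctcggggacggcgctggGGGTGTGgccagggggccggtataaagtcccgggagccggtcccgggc
Arhgap29, chr3:121952979-121953228, forward strand: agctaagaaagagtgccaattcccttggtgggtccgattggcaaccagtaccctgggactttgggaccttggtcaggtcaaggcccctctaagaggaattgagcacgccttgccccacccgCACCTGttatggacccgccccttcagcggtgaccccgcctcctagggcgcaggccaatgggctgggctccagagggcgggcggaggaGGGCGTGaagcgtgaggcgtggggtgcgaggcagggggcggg
Atp1b1, chr1:164458356-164458605, reverse strand: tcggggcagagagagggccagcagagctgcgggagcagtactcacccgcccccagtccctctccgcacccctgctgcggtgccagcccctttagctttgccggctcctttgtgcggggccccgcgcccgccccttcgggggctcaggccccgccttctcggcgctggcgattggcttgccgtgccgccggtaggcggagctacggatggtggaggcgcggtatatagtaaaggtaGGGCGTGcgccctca
Adh1, chr3:138277335-138277584, forward strand: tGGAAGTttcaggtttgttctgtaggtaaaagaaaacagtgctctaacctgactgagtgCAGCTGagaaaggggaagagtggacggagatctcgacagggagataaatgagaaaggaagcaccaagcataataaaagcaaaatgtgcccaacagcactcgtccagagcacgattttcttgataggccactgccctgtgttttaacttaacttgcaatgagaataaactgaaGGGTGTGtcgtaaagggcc
Actn1, chr12:80260364-80260613, reverse strand: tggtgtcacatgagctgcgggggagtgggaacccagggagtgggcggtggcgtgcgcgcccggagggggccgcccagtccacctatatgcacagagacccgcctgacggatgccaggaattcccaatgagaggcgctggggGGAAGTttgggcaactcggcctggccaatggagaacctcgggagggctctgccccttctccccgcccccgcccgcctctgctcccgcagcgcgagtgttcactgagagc

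A KLF match was found in Igfbp4, Arhgap29, Atp1b1 and Adh1, 4 of the 7 genes. By window it was found in 5 of 9, against 13.8% of all 32851 windows. In Atp1b1 and Adh1 it ends 9 and 13 bases before the start. ETS matches were found in Actn1 and Adh1 (19.7% of all windows) and E-box matches in Adh1, Als2cl and Arhgap29 (27.7%). A RUNX match was found in the second window of Arhgap29, where it overlaps a KLF match (14.0%). TCF/LEF and FOXO letters were in none of the 9 windows (13.8% and 7.29%). The windows of these genes held between 44.8% (Adh1) and 84.0% (Amigo2) G and C, where the median over all windows is 52.4%, and shares at equal base composition were not computed. A match describes the letters and not a site that is bound.

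The subsets were then set against each other, a difference that the choice of the genes did not use, although it shares arrays with those it did. Of the 10 genes 5 were lower and 2 higher in CD49b+ than in CD25+ cells (limma, adjusted p under 0.05), against a background of 12.4% lower and 17.5% higher among all genes tested. The median over the 10 genes was -0.31 and that over all genes 0.03. Atp1b1 was lower by the most, with a log2 difference of -2.38 ± 0.10 (SE; n = 3 and 3; limma adjusted p = 6.21e-07), 5.20-fold lower. All 3 of its probe sets were called when every probe set was tested (-2.38, -2.34 and -1.11). Actn1 followed at -1.67 ± 0.09 (limma adjusted p = 1.86e-06), 3.18-fold lower. Its other probe sets showed -0.26 (limma adjusted p = 0.0219 over 24816 probe sets) and -0.20 (0.114), so that the size of the difference depends on the probe set.

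The other calls between the subsets were under 2-fold. Amigo2 was at -0.75 ± 0.14 (limma adjusted p = 0.00243) and Als2cl at -0.60 ± 0.12 (0.00451), and the arrays of the subsets did not overlap for either. The second probe set of Als2cl gave -0.13 and was not called (0.296). Lypd6b was at -0.40 ± 0.11 (limma adjusted p = 0.0231), a call lost without CD49b+ replicate 2 (0.0738) or 3 (0.0571), without CD25+ replicate 1 (0.0616) or 3 (0.0676), and without replicate 3 of both (0.122). Ntrk3 was higher in CD49b+ cells, by 0.51 ± 0.11 (limma adjusted p = 0.00596), with no overlap. Its other tested probe sets gave 0.00 and 0.04, and with the mean of its probe sets the call was lost (0.08, adjusted p = 0.306). Enc1 was higher by 0.53 ± 0.18 (limma adjusted p = 0.0472) although its arrays overlapped, and the call was lost without CD49b+ replicate 1 (0.148) or 2 (0.129), without CD25+ replicate 1 (0.110) or 3 (0.139), and with the mean of its probe sets (0.146).

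Igfbp4, Adh1 and Arhgap29 were not called between the subsets. Igfbp4 differed by -0.05, with a 95% confidence interval between -0.34 and 0.25, and none of its 6 probe sets was called. Adh1 differed by -0.15 (-0.40 to 0.09). Arhgap29 differed by -0.22 (-0.42 to -0.01; limma adjusted p = 0.104), with all CD49b+ arrays below all CD25+ arrays and both under the array medians. Over the 10 genes, the arrays of the subsets did not overlap for 7, against 41.6% of all genes tested.

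**Figure D3:**
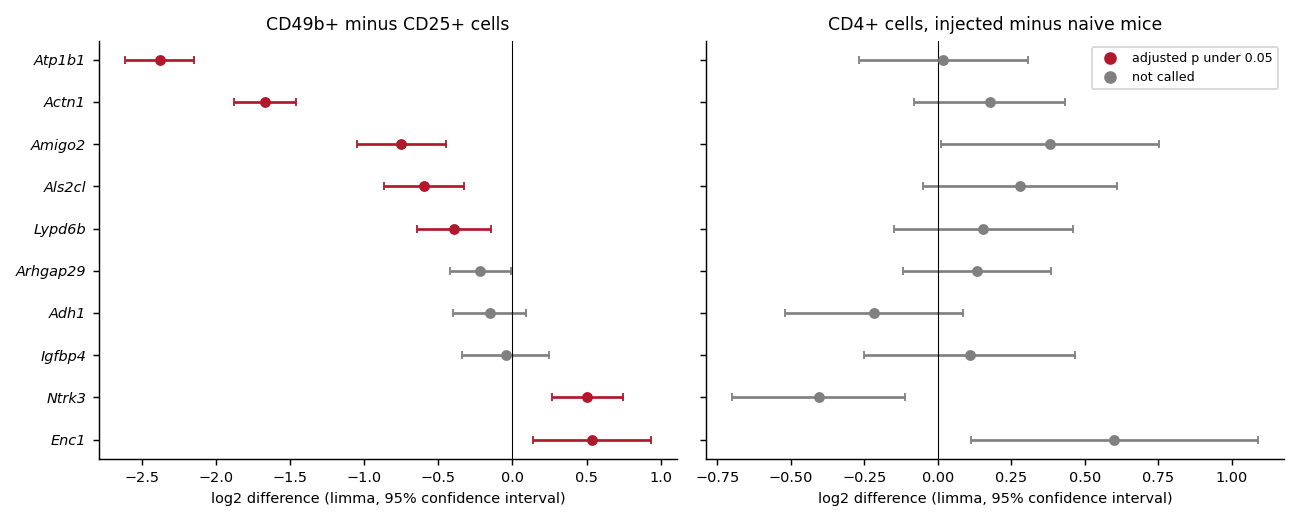
Log2 differences (x axis, points) with 95% confidence intervals from limma (bars) for the 10 genes (rows), CD49b+ minus CD25+ cells on the left and CD4+ cells of injected minus naive mice on the right; red marks an adjusted p under 0.05. Atp1b1 and Actn1 lie at -2.38 and -1.67 on the left, and no gene is red on the right, where the axis is narrower.

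Dendritic cell injection was compared in CD4+ cells of injected and naive mice. None of the 10 genes was called (limma), against a background of 0.0272% higher and 1.36% lower among all genes tested, and 3 of the 10 passed an unadjusted p under 0.05 (Enc1, Ntrk3 and Amigo2), as did 12.4% of all genes tested, 270 of them higher and 1095 lower. Their differences lay between -0.40 and 0.60. Enc1 was at 10.25 and 10.17 in injected and 9.68 and 9.54 in naive mice, a difference of 0.60 ± 0.22 (SE; n = 2 and 2; limma adjusted p = 0.277). With replicate number as a block Enc1 was called (limma adjusted p = 0.0415), though same-numbered CD4+ arrays did not deviate together. Ntrk3 differed by -0.40 ± 0.13 (limma adjusted p = 0.212) and Amigo2 by 0.38 ± 0.17 (0.392). For these 3 genes and for Actn1 and Adh1 the 2 groups of arrays did not overlap, 5 of 10, against 48.5% of all genes tested. Igfbp4 differed by 0.11, with an interval between -0.25 and 0.47, and Atp1b1 by 0.02 (-0.27 to 0.31).

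The 10 genes also differed among themselves in pattern. After each gene was centred on its mean over the 10 arrays, the closest 2 profiles were those of Arhgap29 and Lypd6b, at a root mean square distance of 0.15 log2 units, followed by Als2cl and Amigo2 at 0.23. The farthest were Igfbp4 and Atp1b1, at 1.36. Among all other genes tested, the 6 nearest to the median profile of the 10 were Snn at 0.147, App at 0.321, Tgfbr3 at 0.364, Lef1 at 0.383, Adam23 at 0.440 and Klhdc2 at 0.456. App encodes the amyloid precursor protein, Tgfbr3 a co-receptor of transforming growth factor beta, and Lef1 a transcription factor of naive T cells. Snn, which encodes stannin, was also nearest to 5 of the genes singly: Arhgap29, Lypd6b, Als2cl, Amigo2 and Adh1. Of the others, Actn1 was nearest to Nsg2 (0.335), Atp1b1 to Cnn3 (0.357), which encodes the actin-binding protein calponin 3, and Enc1 and Ntrk3 to Rflnb (0.291 and 0.225). For Igfbp4 the nearest, Ccnd1, encoding cyclin D1, was at 0.743. The distances describe 10 arrays that fall into few levels. Snn, Adam23 and Ccnd1 lay under the array median on every subset array and met the filter only through CD4+ arrays, where they are high.

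Relatives and partners of the 10 genes were examined as 10 lists, drawn up with earlier results of these data known and holding none of the 10. Of 154 genes listed 129 had a probe set and 84 were tested. Among these, Tln2, Flrt2, Lypd1 and Atp1b2 met the filter only through CD4+ arrays, where they are high. Cyp26a1 needed the CD4+ arrays of injected mice to meet the filter, since only 1 CD25+ array lay above the median besides them. Rdh12 and Cyp26b1 met it only through subset arrays. The counts below include these genes, although the filter favoured 1 direction for them. In CD49b+ against CD4+ cells of injected mice 29 were higher and 28 lower (limma), against a background of 29.9% higher and 23.5% lower. In CD25+ cells 18 were higher and 22 lower (background 20.8% and 17.8%), and 16 were higher and 14 lower in CD49b+ than in CD25+ cells (background 17.5% and 12.4%). The medians of the 84 were 0.02, 0.03 and 0.03, next to 0.03, 0.02 and 0.03 over all genes.

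Of the insulin-like growth factor axis, the relatives of Igfbp4, 6 of 15 with a probe set were tested. In CD49b+ cells all 6 were lower than in CD4+ cells of injected mice (median -1.12), and in CD25+ cells 1 was higher and 3 lower (median -0.41). Igf1r, the receptor of insulin-like growth factor 1, had 5.78, 5.98 and 6.12 in CD49b+ cells and 9.15, 8.58 and 8.46 in CD25+ cells, against 7.02 and 6.99 in CD4+ cells of injected mice. The subsets lay on opposite sides of the CD4+ cells. Relative to CD4+ cells Igf1r was at -1.05 ± 0.18 in CD49b+ cells (limma adjusted p = 0.00105) and rose by 1.73 ± 0.18 in CD25+ cells (8.18e-05). The difference of CD49b+ minus CD25+ cells was -2.77 ± 0.16 (limma adjusted p = 2.31e-06). Insr, the insulin receptor, was lower in CD49b+ cells than in CD25+ cells (-1.20 ± 0.19, limma adjusted p = 0.00103) and than in CD4+ cells (-1.22 ± 0.21, 0.000974). Its other, dimmer probe sets showed -0.03 and 0.02 against CD25+ cells and -0.32 and -0.28 against CD4+ cells. Igfbp5, another binding protein of the family, was lower than in CD4+ cells by -1.27 ± 0.23 in CD49b+ (limma adjusted p = 0.00119) and -1.12 ± 0.23 in CD25+ cells (0.00365). Stc2, an inhibitor of the protease that cuts Igfbp4, was at -1.20 (limma adjusted p = 0.0045) and -0.94 (0.0212). The second call was lost without either CD4+ replicate or CD25+ replicate 1 (0.0613 to 0.102). Other probe sets of Stc2 showed only -0.37 and -0.30 in CD49b+ and -0.40 and -0.32 in CD25+ cells.

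Of the actinin family and its focal adhesion partners 14 were tested. In this list 9 were higher and 0 lower in CD49b+ than in CD25+ cells (median 0.47), and 9 were higher and 2 lower in CD49b+ than in CD4+ cells of injected mice (median 0.43). The CD25+ cells had 4 higher and 4 lower than CD4+ cells (median 0.06). Actn2, the close relative of Actn1 known from muscle, had 7.81, 7.81 and 7.56 in CD49b+ cells, against 5.17, 5.54 and 5.54 in CD25+ cells and 5.21 and 5.63 in CD4+ cells of injected mice. It was higher by 2.31 ± 0.14 in CD49b+ than in CD25+ cells (limma adjusted p = 2.51e-06), while Actn1 was lower. Vcl, encoding vinculin, which binds actinin and talin at adhesions, was higher by 1.13 ± 0.07 (limma adjusted p = 2.74e-06), and Zyx, encoding zyxin, by 1.46 ± 0.11 (8.63e-06). A further call placed Zyx above CD4+ cells in the CD25+ subset (0.49 ± 0.12), with the opposite sign for the mean of its probe sets (-0.19). Pdlim1, which binds alpha-actinin, was lower than in CD4+ cells in both subsets, by -0.70 ± 0.10 in CD49b+ (limma adjusted p = 0.000307) and -1.01 ± 0.10 in CD25+ cells (5.53e-05). Tln2, encoding talin 2, stood at -0.66 and -0.52. It met the filter only through the CD4+ arrays, where it is high, so that these values are a description. It is among the genes counted as lower above.

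Ptpn13, a tyrosine phosphatase that binds the human Arhgap29 protein, had 9.33, 9.17 and 9.19 in CD49b+ cells and 8.14, 8.19 and 8.16 in CD25+ cells, against 6.61 and 6.48 in CD4+ cells of injected mice. It was higher by 2.68 ± 0.08 in CD49b+ (limma adjusted p = 4.62e-08) and by 1.61 ± 0.08 in CD25+ cells (9.77e-07), where its second, dim probe set gave -0.06 and -0.15. The Rab5 partners of Als2cl gave 5 higher and 0 lower of 10 in CD49b+ cells and 4 higher and 0 lower in CD25+ cells. Rabgef1, which activates Rab5, was higher by 1.23 ± 0.16 in CD49b+ (limma adjusted p = 0.000181) and 0.85 ± 0.16 in CD25+ cells (0.00246). The second of these was lost with the mean of its probe sets (0.23, adjusted p = 0.0766). Other probe sets of Rabgef1 gave 0.33 and 0.29 in CD49b+ and -0.12 and -0.04 in CD25+ cells, so that the size depends on the probe set. Eea1, a Rab5 effector of early endosomes, was higher in both subsets (1.65 and 2.32, limma adjusted p = 0.000433 and 9.03e-05) while in CD4+ cells it was lower in injected mice than in naive ones (-1.62, 0.0209). The last call, the only one among the 84 between the CD4+ groups, was lost without naive replicate 2 or either injected replicate (0.0921 to 0.208).

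Of the sodium-potassium pump subunits, 5 were tested beside Atp1b1. In CD49b+ cells 1 was higher and 4 lower than in CD4+ cells of injected mice (median -0.35), and in CD25+ cells 0 were higher and 4 lower (median -0.53). Atp1b2, encoding the beta 2 subunit, stood at -0.78 and -0.68. It met the filter only through the CD4+ arrays, where it is high, so that these values are a description. It is 1 of the 4 counted as lower in each subset. Fxyd5, a small regulator of the pump, was higher in CD49b+ than in CD25+ cells by 0.64 ± 0.11 (limma adjusted p = 0.00158), and Atp1b3, the beta 3 subunit, was lower in CD25+ than in CD4+ cells (-0.53 ± 0.09, 0.00146). None of the 5 was called lower in CD49b+ than in CD25+ cells, where Atp1b1 was. The AMIGO and leucine-rich list had 4 tested of 11. In it Lrig1, a feedback inhibitor of growth factor receptors, exceeded its CD4+ level in the CD25+ subset by 2.12 ± 0.18 (limma adjusted p = 2.76e-05) and lower in CD49b+ than in CD25+ cells by -2.27 ± 0.16 (8.48e-06). Amigo1 was lower in CD25+ than in CD4+ cells, by -0.40, a call lost with median centring (adjusted p = 0.0573) and without injected CD4+ replicate 2 (0.0872). Flrt2 differed by -0.37 there, as a description, since it met the filter only through the CD4+ arrays, where it is high.

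The Ly6 family had 6 tested, with 1 higher and 4 lower in CD49b+ and 1 higher and 3 lower in CD25+ cells, relative to CD4+ cells of injected mice. Ly6e, a surface protein of T cells, was the one that rose, by 1.28 ± 0.12 and 1.76 ± 0.12 (limma adjusted p = 2.5e-05 and 6.17e-06). The neurotrophin list had 4 tested, of which 0 were higher and 3 lower in each subset: Bdnf, a neurotrophin, by -0.86 and -0.68, Ntrk2, the receptor TrkB, by -0.46 and -0.46, and Sort1, a sorting receptor, by -0.47 and -0.35. The Sort1 calls were lost with median centring (adjusted p = 0.0813 and 0.241) and without CD4+ injected replicate 1 (0.0787 and 0.243). The one in CD25+ cells was also lost with the replicate block (0.0790), quantile normalization (0.111), only the arrays compared (0.0878), without CD4+ injected replicate 2 (0.0807), without CD25+ replicate 1 (0.125) or 3 (0.116), and without replicate 3 of both subsets (0.141). Retinoid genes, the setting of Adh1, gave 6 higher and 2 lower of 12 in CD49b+ and 3 higher and 2 lower in CD25+ cells. Dhrs3, which turns retinal back into retinol, was higher by 0.80 ± 0.19 in CD49b+ (limma adjusted p = 0.00591) and by 1.57 ± 0.19 in CD25+ cells (0.000201). The BTB-kelch list of Enc1 gave 3 higher and 4 lower of 11 in CD49b+ and 2 higher and 1 lower in CD25+ cells. Klhl25 was higher in CD49b+ than in CD4+ cells (0.91) and than in CD25+ cells (0.84), and Klhl7 was lower (-1.11 and -0.81), with limma adjusted p between 3.12e-05 and 0.000258 in these 4.

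**Figure D4:**
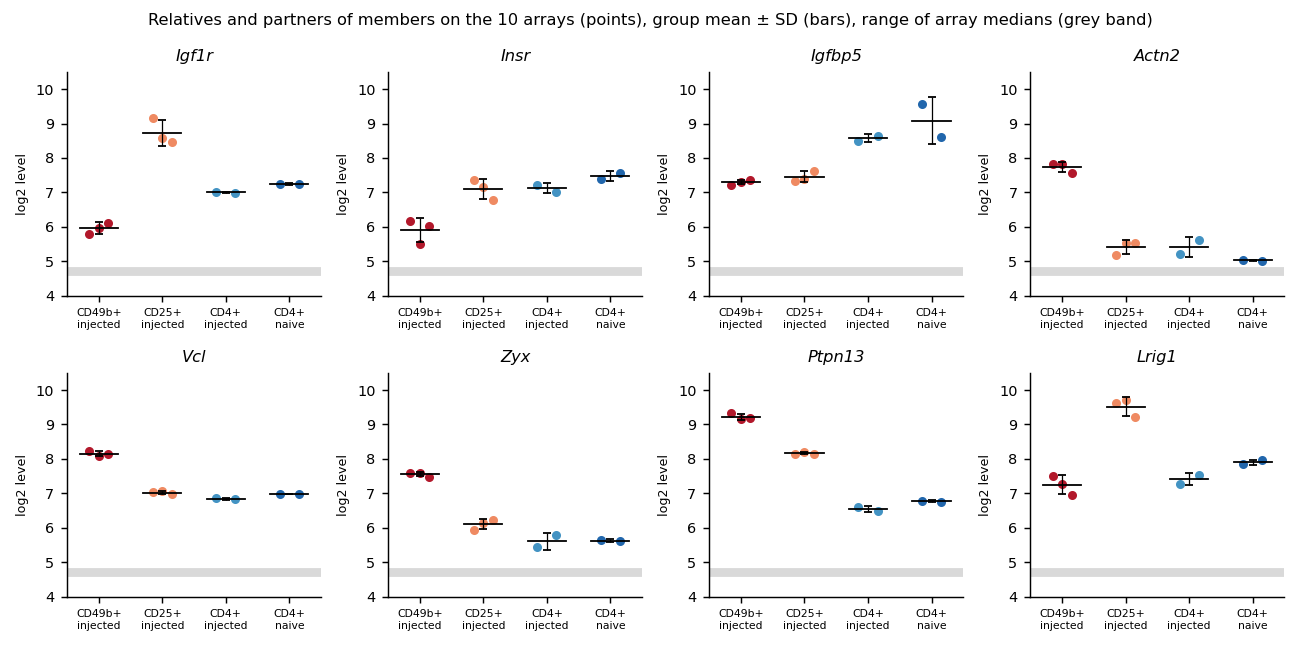
Log2 level (y axis) of 8 relatives or partners of the 10 genes on each array, by group (x axis); points are arrays, bars are group means ± SD, and the grey band is the range of the array medians. Igf1r and Lrig1 are highest in CD25+ cells, Actn2, Vcl and Zyx in CD49b+ cells, and Ptpn13 lies above CD4+ cells in both subsets.

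Markers of T cell state were examined beside the 10 genes. Of 12 listed genes of naive T cells 7 had a probe set and 6 were tested, among them Lef1, Foxp1 and Bach2. Against CD4+ cells of injected mice, 6 were lower in CD49b+ cells and 4 in CD25+ cells (limma, medians -1.66 and -0.83, background 23.5% and 17.8%). Bach2 differed by -3.09 in CD49b+ cells and by only -0.47 in CD25+ cells. The summed linear level of the 7, Foxo1 included, was 5367 to 5886 in CD49b+ and 5728 to 7343 in CD25+ cells, against 10440 to 10876 in CD4+ cells of injected mice and 8762 to 9632 in those of naive mice. Of 9 tested genes of activated or regulatory T cells, with Il2ra among them, 8 were higher in CD49b+ and 9 in CD25+ cells (medians 1.81 and 2.25, background 29.9% and 20.8%). The sums of these 9 were 7455 to 8119 and 11192 to 13727, against 2351 to 2976 and 3974 to 4374. Il2ra met the filter only through subset arrays, where it is high, and it encodes CD25, on which the CD25+ cells were sorted. Its part in these counts, medians and sums is therefore a description. The part of these states in the loss of the 10 genes was not tested.

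Defining markers of other cells were examined next. The B cell markers Cd79a, Ms4a1, Ighm and Pax5, myeloid markers Lyz2, Itgam and Cd14, the CD8 marker Cd8b1 and the stromal markers Col1a1, Col1a2, Col3a1, Dcn and Lum lay in no group above the array median on every array. Of 7 B cell markers 2 lay above it on every CD49b+ array, 3 on every CD25+ array and 1 on every array of each CD4+ group. Cd79b, a chain of the B cell receptor, was among them in both subsets. It differed from CD4+ cells of injected mice by 0.96 in CD49b+ and 1.53 in CD25+ cells. Cd79b met the filter only through subset arrays, where it is high. Cd22, above the median in every group, was lower in CD49b+ cells by -0.65 ± 0.13 (limma adjusted p = 0.00200), and Blk by -0.40 ± 0.11 (0.0101). In CD25+ cells they differed by -0.05 and 0.05. Of 4 tested B cell markers 1 was higher and 2 lower in CD49b+ cells, and 1 was higher and 0 lower in CD25+ cells. The B cell list summed to 195 to 199 in CD49b+ and 242 to 267 in CD25+ cells, against 219 to 244 and 323 to 347 in CD4+ cells of injected and of naive mice. Of 10 myeloid markers 4, 5, 6 and 6 lay above the median in the 4 groups in the same order, Itgax and Cybb in every group. The myeloid list summed to 249 to 262 in CD49b+ and 295 to 323 in CD25+ cells, against 368 to 390 and 578 to 707 in CD4+ cells of injected and of naive mice. The endothelial list, relevant because Arhgap29 is known from endothelium, summed to 167 to 193 and 192 to 220 in the subsets, against 297 to 305 and 301 to 321, and 2 of its 6 markers in CD49b+ cells and 3 in each other group lay above the median; Cdh5, Tek and Emcn did so in none. For stromal markers the sums were 92.4 to 95.3 and 84.3 to 93.1, against 97.7 to 98.0 and 97.4 to 99.7. Natural killer markers summed to 647 to 974 in CD49b+ and 236 to 331 in CD25+ cells, against 295 to 347 and 506 to 611, with 5, 5, 4 and 4 of its 7 markers above the median and Klrb1c in no group. Of 6 tested natural killer markers 4 were higher and 2 lower in CD49b+ than in CD4+ cells of injected mice (limma, background 29.9% and 23.5%). In CD25+ cells 2 were higher and 2 lower (background 20.8% and 17.8%). Gzma, a granzyme, differed by 3.97 in CD49b+ and 1.48 in CD25+ cells. The markers Gzma and Ncr1 met the filter only through subset arrays, where they are high. Nkg7, a protein of cytotoxic granules, was higher by 2.78 ± 0.39 in CD49b+ cells (limma adjusted p = 0.000300). Tyrobp (-1.81 and -1.57) and Prf1 (-1.10 and -1.11) were lower in CD49b+ and CD25+ cells. As a measure of RNA quality, Gapdh read from its 3' end minus its 5' end was 0.46 ± 0.23 in CD49b+ and 0.52 ± 0.12 in CD25+ cells (SD, n = 3 each), against 0.19 ± 0.09 and 0.02 ± 0.05 in CD4+ cells of injected and of naive mice (SD, n = 2 each), and was thus higher in the groups with the loss. The part of RNA quality and of other cells in the loss was not tested.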

How the data were processed

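The authors deposited log2 expression values of 45141 probe sets on 10 arrays, for which the submitters' processing notes name GCRMA and Affymetrix Expression Console 1.2.1. GCRMA corrects background, normalizes arrays and summarises probes. The labels do not say whether all arrays went through this step together. No scanner files were used, so probes well above background could not be told by a flag, and the array median stands in for it.

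Of the probe sets, 104 were controls, 28898 had 1 gene symbol in the platform annotation, 551 had several and 15588 were not listed. Each of 17097 genes was represented by its brightest probe set. Genes with at least 2 arrays above the 50th percentile of their array were tested (11037), and 6060 dim ones were not. A limma fit (3.58.1, R 4.3.3; lmFit of 4 group means, eBayes) gave two-sided p-values, adjusted by Benjamini-Hochberg over the tested genes within each comparison and called under 0.05. Where every probe set was tested, 24816 entered. Precision is limited by how few arrays there are.

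The 10 genes and all lists were chosen with earlier results of these data known. Named genes are the 10, up to 3 called relatives per list and comparison with the largest difference, not all of which are printed (1 list is not reported here), and the nearest profiles; markers were named where they bear on the sort. In the labels the groups share replicate numbers. Same-numbered CD49b+ and CD25+ arrays deviated together from their group means (r = 0.158, 0.366 and 0.641), which by the rule set for pairing counts as paired. Injected CD4+ arrays also went with same-numbered CD49b+ (0.088 and 0.522) and CD25+ arrays (0.245 and 0.531). Same-numbered arrays of injected and naive CD4+ cells did not deviate together (-0.209). The main fit did not use the pairing, so that its p-values are unpaired, and the replicate block is given as an alternative. The fit was tested on simulated data. The alternatives were other filters, quantile normalization, median centring, the mean of probe sets or every probe set, another prior, the replicate block, only the arrays compared, and arrays left out.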

Additional observations from a re-analysis of the deposited data

How the results depend on the processing

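Between CD49b+ and CD25+ cells, 7 of the 10 genes were called, 5 to 7 with 1 array left out, and 6 without replicate 3 of both subsets, an alternative chosen after seeing the data. The replicate block gave 7 as well and changed no call of the 10 genes in this comparison. In injected against naive CD4+ cells 0 were called, also with each array left out, and 1 with the replicate block or with crossed numbers, which the negative correlation pointed to and which were added after seeing the data. Relatives in that comparison numbered 1, against 0 with only the arrays compared, 2 with the block, 3 with crossed numbers, and 0 to 2 with arrays left out. With arrays left out, relatives numbered 24 to 28 between the subsets (30 in the main setting), 45 to 55 in CD49b+ cells (57) and 27 to 38 in CD25+ cells (40), each set against CD4+ cells. Those in CD49b+ cells, 29 higher and 28 lower, were 39 and 14 with median centring, 31 and 47 with no filter on dim genes and 25 and 15 with the 70th percentile. Those in CD25+ cells, 18 and 22, were 29 and 14 with median centring, and numbered 61 with no filter on dim genes (20 higher, 41 lower) and 25 with the 70th percentile (15 and 10). The median difference of the 10 genes in CD49b+ cells, -3.04, was -2.85 with median centring, -2.60 with the mean of probe sets and -3.17 to -3.04 with arrays left out. In CD25+ cells, -2.45 became -2.29, -2.17 and -2.53 to -2.41. With arrays left out, signs turned for differences near 0: Igfbp4 between the subsets (-0.17 to 0.074, and 0.0019 without replicate 3 of both), and Igfbp4 (-0.0028 to 0.22), Arhgap29 (-0.025 to 0.29) and Atp1b1 (-0.024 to 0.063) between the CD4+ groups. Zyx in CD25+ against CD4+ cells turned to -0.19 with the mean of probe sets. Enc1 was also lost between the subsets with no filter (adjusted p = 0.0645), with only the arrays compared (0.0904) and with every probe set (0.0712).

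Median centring moved the median of all genes to 0.22 for CD49b+ cells and 0.18 for CD25+ cells, each minus CD4+ cells, and the share of calls that were higher to 78.3% and 78.6%, against 56.0% and 53.9%. No filter gave 38.6% and 34.3%, and the stricter filter 69.4% and 72.0%. Over all genes, 9123 and 7583 were called with no filter against 5892 and 4261, and 2500 with the stricter filter in CD25+ cells. Between the CD4+ groups 0 were called with only the arrays compared and 377 with the block, against 153. Between the subsets the block gave 4024 calls, against 3297. The cause of these shifts was not tested.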
